A study of Ovis aries with 9 samples.

Results

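The genes described here are receptors, transcription factors and a junction protein by which ovarian granulosa cells (GCs) are recognised. They were taken by symbol from a table of 39157 genes in cultured sheep GCs. Of 10 symbols, 7 had a row, 1 row each: the receptors FSHR and AMHR2, the transcription factors NR5A1, NR5A2, ESR2 and GATA4, and the connexin GJA1. The symbols LHCGR, FOXL2 and AMH matched no row and were not analysed here. All of the cells came from thin-tailed Han ewes, whose age the labels give as 1 year and the methods as 1 year or somewhat more, from follicles 3 to 5 mm wide whose contents were pooled. They were grown for 48 h with 10% serum and held for 8 h without glucose or serum. For the next 24 h the medium held no glucose (0 mM) in the group CON, 8.4 mM in LOW and 33.6 mM in HIGH, with 3 libraries in each group. Nothing in the labels ties the replicates to separate animals, so p-values measure only the spread between these libraries, which may be technical.

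GCs surround the oocyte, respond to follicle-stimulating hormone (FSH) and make estradiol. FSH binds FSHR, a receptor that works through cAMP and protein kinase A. The nuclear receptors NR5A1 (steroidogenic factor) and NR5A2 (liver receptor homolog) and the zinc finger protein GATA4 switch on genes of steroid synthesis. ESR2 is the estrogen receptor beta, the main estrogen receptor of GCs, and AMHR2 is the receptor to which anti-Müllerian hormone binds. GJA1 forms the gap junctions through which GCs exchange small molecules.

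The values are FPKM, the fragments of a gene per kilobase of its length and per unit of sequencing depth, so levels may be compared between genes. An FPKM of 1 stood for 48.0 to 71.3 fragments per kilobase, depending on the library. The share of all FPKM that fell on small RNAs differed between libraries, from 30.3% in HIGH replicate 1 to 72.1% in LOW replicate 3. Of 16 fixed GC markers, which include the 10 symbols, 12 had a row and 10 of these had a mean FPKM of 1 or more. Summed over these markers, CON libraries had an FPKM of 261 to 318, LOW libraries 243 to 263 and HIGH libraries 239 to 282, with CDH2 (N-cadherin) the most abundant at 54.9% of the sum. For the 10 stromal markers the sums were 2927 to 3087, 2771 to 2905 and 3000 to 3331 in the same order, led by LUM at 1815 to 2239 (67.9%). For the 6 smooth muscle markers with a row they were 2609 to 3927, 2862 to 3095 and 1779 to 3123, led by TAGLN at 926 to 2771 (63.8%). Each of these sums was thus mostly that of its leading gene. No oocyte or endothelial marker reached a mean FPKM of 1, and BMP15, ZP4 and CDH5 were listed at 0. In bulk RNA, fewer cells of a type and less RNA per cell cannot be told apart.

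The 7 genes covered a wide range of levels, from GJA1 with a mean of 50.6 FPKM over the 9 libraries to FSHR with 0.414. GJA1 stood at the 94.97 percentile of all genes with a symbol, NR5A2 at 82.5, NR5A1 at 72.6 and GATA4 at 59.8. ESR2, AMHR2 and FSHR stood at the 39.3, 32.5 and 30.1 percentiles. The order was GJA1, NR5A2, NR5A1, GATA4, ESR2, AMHR2 and FSHR. Each neighbour in that order was compared within libraries on the log2(scaled FPKM + 0.1) scale by an exact 2-sided sign-flip permutation test over the 9 libraries, with Benjamini-Hochberg adjustment over the 6 pairs. All 6 pairs differed.

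The widest steps were between GATA4 and ESR2, at 3.73-fold, and between GJA1 and NR5A2, at 2.99-fold. NR5A2 was 1.60-fold above NR5A1 and ESR2 was 2.09-fold above AMHR2. In these 4 pairs the first gene was higher in 9 of 9 libraries (adjusted exact permutation p = 0.00586). NR5A1 was 1.89-fold above GATA4 and higher in 8 of 9 libraries (adjusted exact permutation p = 0.00938). The narrowest step was that between the receptors: AMHR2 was 1.41-fold above FSHR and higher in 7 of 9 libraries (adjusted exact permutation p = 0.0391). This pair did not pass without any one of the 6 libraries numbered 1 or 2 (adjusted exact permutation p = 0.0625 to 0.0781), so their order rests on these libraries. In the plot of levels GJA1 stands clear of the rest, the range of NR5A1 overlaps those of NR5A2 above it and GATA4 below it, and those of ESR2, AMHR2 and FSHR overlap. The order holds for gene rows, which sum annotated transcripts and transcripts assembled by the authors, as described below. On annotated transcripts alone, AMHR2 had a mean of 0.191 FPKM, below FSHR at 0.414. GATA4 had 0.324 there, below ESR2 at 0.760, so both steps were reversed. This reversal was not tested.

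**Figure D1:**
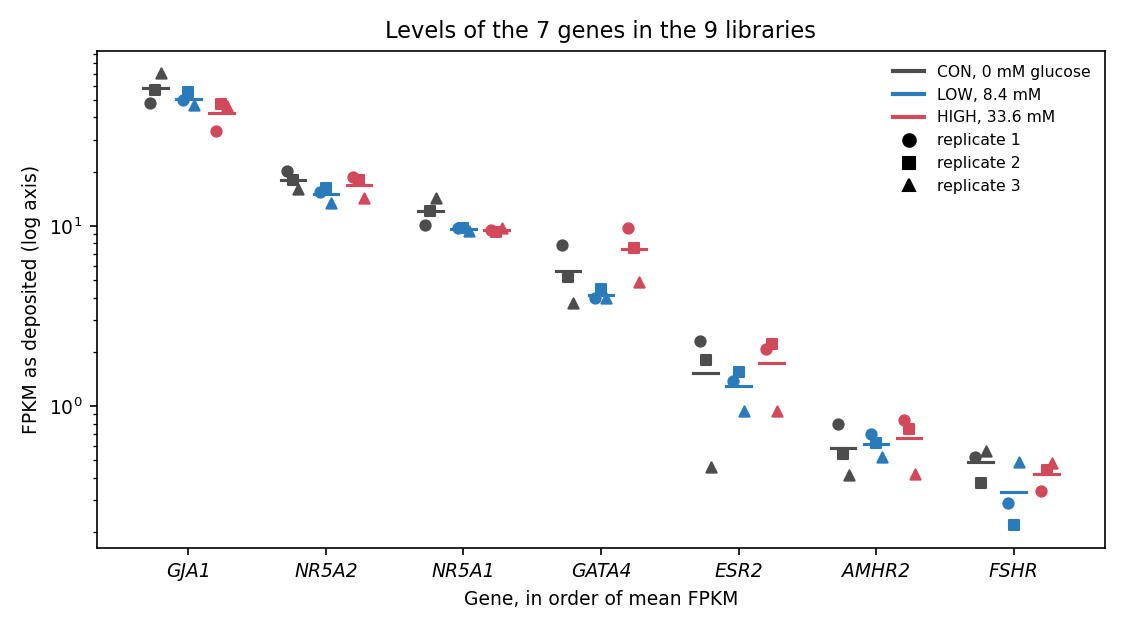
FPKM as deposited (log axis) of the 7 genes in each of the 9 libraries, with color for the glucose group, marker shape for the replicate number and a short line at the mean of each group of 3. GJA1 lies between 33.6 and 70.3 FPKM and FSHR between 0.218 and 0.564, and for ESR2 the triangle of CON replicate 3 lies far below the other 2 CON libraries.

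Among the receptors, FSHR (ENSOARG00000004340) occupies bases 75276939 to 75471157 of chromosome 3, in the coordinates of the deposited table, whose genome build is not given in the sources used here. It was measured at 0.525, 0.377 and 0.564 FPKM in CON, 0.289, 0.218 and 0.490 in LOW, and 0.338, 0.442 and 0.482 in HIGH. The lowest values were those of LOW replicates 1 and 2, while LOW replicate 3 lay within the CON range, and the groups overlapped. Group means were 0.489 ± 0.0988, 0.333 ± 0.141 and 0.421 ± 0.0746 FPKM (SD, n = 3 each). These levels rest on 14.2 to 37.4 fragments per kilobase. LOW against CON differed by -0.40 on the log2 scale (SE 0.32), with a 95% interval of 0.460-fold to 1.26-fold.

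AMHR2 (ENSOARG00000016492, chromosome 3, 132929950 to 132940804) was measured at 0.799, 0.541 and 0.416 FPKM in CON, 0.697, 0.627 and 0.521 in LOW, and 0.838, 0.745 and 0.418 in HIGH. The level was highest in replicate 1 and lowest in replicate 3 of every group, and the groups overlapped throughout. Means were 0.586 ± 0.195, 0.615 ± 0.0886 and 0.667 ± 0.220 FPKM (SD, n = 3 each). The largest difference between groups, HIGH against CON, was 0.19 (SE 0.29) on the log2 scale, smaller than its error. The depth was 21.0 to 57.0 fragments per kilobase.

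Of the transcription factors, NR5A2 (ENSOARG00000015980, chromosome 12, 76978832 to 77092173) varied least of the 7 genes, with a coefficient of variation of 12.9% over the 9 libraries. It was measured at 20.1, 17.9 and 16.1 FPKM in CON, 15.5, 16.1 and 13.5 in LOW, and 18.6, 17.9 and 14.3 in HIGH. The third replicate was the lowest of each group, and the groups overlapped. Means were 18.0 ± 2.01, 15.03 ± 1.40 and 16.9 ± 2.35 FPKM (SD, n = 3 each). The 95% intervals of its 3 comparisons lay between 0.742-fold and 1.30-fold, so a change of 2-fold in either direction was outside them.

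NR5A1 (ENSOARG00000013422, chromosome 3, 11289822 to 11309195) was measured at 10.1, 12.2 and 14.2 FPKM in CON, 9.73, 9.74 and 9.36 in LOW, and 9.55, 9.22 and 9.80 in HIGH. As deposited, each CON value was above each LOW and HIGH value, by little for CON replicate 1. After the libraries were brought to a common scale, CON replicate 1 lay below all 3 LOW values, at -0.19 from the gene's mean on the log2 scale, and the groups overlapped. Means were 12.2 ± 2.08, 9.61 ± 0.216 and 9.52 ± 0.288 FPKM (SD, n = 3 each). HIGH against CON was -0.29 (SE 0.17, adjusted p = 0.651, limma) and LOW against CON was -0.22 (SE 0.17).

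GATA4 (ENSOARG00000015228, chromosome 2, 104291815 to 104373223) was measured at 7.88, 5.23 and 3.73 FPKM in CON, 3.97, 4.50 and 4.001 in LOW, and 9.79, 7.54 and 4.90 in HIGH. Every HIGH value was above every LOW value, while CON overlapped both. Means were 5.61 ± 2.10, 4.16 ± 0.294 and 7.41 ± 2.45 FPKM (SD, n = 3 each). HIGH against LOW was 0.71 (SE 0.27, unadjusted p = 0.026, adjusted p = 0.621, limma), a 1.63-fold difference with a 95% interval of 1.08 to 2.47, and it did not pass the adjusted test. GATA4 was highest in HIGH replicate 1, the library with the lowest share of small RNA. With that share as a covariate, HIGH against LOW was 0.16 (unadjusted p = 0.424, limma). The share was 67.0, 69.4 and 72.1% in LOW and 30.3, 50.7 and 68.2% in HIGH. It thus largely followed the groups, and the parts of glucose and of the share cannot be told apart. The difference was 0.48 without HIGH replicate 1 (unadjusted p = 0.104, limma). It was 0.94 without HIGH replicate 3 (unadjusted p = 0.0064, adjusted p = 0.225, limma).

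ESR2 (ENSOARG00000021148, chromosome 7, 73317770 to 73419719) varied most, with a coefficient of variation of 42.4%. It was measured at 2.31, 1.81 and 0.461 FPKM in CON, 1.39, 1.55 and 0.935 in LOW, and 2.07, 2.21 and 0.939 in HIGH. The third replicate was the lowest of its group, and the spread within CON and HIGH exceeded the distance between the group means. Means were 1.53 ± 0.958, 1.29 ± 0.318 and 1.74 ± 0.697 FPKM (SD, n = 3 each). The intervals of ESR2 were the widest of the 7 genes, in HIGH against CON from 0.597-fold to 2.84-fold. Its sign turned without CON replicate 3, from 0.38 to -0.23 on the log2 scale.

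GJA1 (ENSOARG00000019963, chromosome 8, 16824570 to 16837001) was measured at 48.3, 56.8 and 70.3 FPKM in CON, 50.05, 55.6 and 46.7 in LOW, and 33.6, 47.7 and 46.3 in HIGH. HIGH replicate 1 was the lowest and CON replicate 3 the highest library. Means were 58.4 ± 11.1, 50.8 ± 4.50 and 42.5 ± 7.72 FPKM (SD, n = 3 each). HIGH against CON was -0.41 (SE 0.20, unadjusted p = 0.070, adjusted p = 0.651, limma), a 0.751-fold level with a 95% interval of 0.548 to 1.03. HIGH against LOW was -0.33 (SE 0.20, unadjusted p = 0.136, limma). These 2 groups overlapped as deposited and not after scaling. GJA1 is also made by fibroblasts and smooth muscle cells, whose marker sums are given above; their part in its level was not tested.

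The glucose groups were compared with limma across 24365 genes, among them all 7, with a call defined as an adjusted p under 0.05 together with a log2 fold change beyond 1 in either direction. None of the 7 genes was called in any comparison. Of all genes tested, 0.00821% were called in LOW against CON, and the same percentage in HIGH against CON and in HIGH against LOW, which is 2 genes each time. The lowest adjusted p among the 7 genes was 1.00 in LOW against CON, 0.651 in HIGH against CON and 0.621 in HIGH against LOW. At an unadjusted p under 0.05, the number of the 7 genes was 0 in LOW against CON, where 1.83% of all genes passed, and 0 in HIGH against CON, where 6.77% passed. It was 1 in HIGH against LOW, GATA4, where 7.67% passed. Without CON replicate 1, 3 of the 7 genes passed the unadjusted threshold in HIGH against CON, GJA1 at -0.60, NR5A1 at -0.47 and GATA4 at 0.67 on the log2 scale, with adjusted p of 0.173, 0.173 and 0.175 in limma. The share of all genes that passed in that setting is not given here. Among the genes of the partner lists counted below, 29 passed there, against 12 with all libraries. In the F test over the 3 groups, 0 of the 7 genes passed at an adjusted p under 0.05, against 0.0123% of all genes (5.44% at an unadjusted p).

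On the scaled log2 values, 0 of the 7 genes had groups that did not overlap in LOW against CON, against 6.07% of all genes, and 0 in HIGH against CON, against 9.4%. In HIGH against LOW there were 2, GATA4 higher and GJA1 lower, where 18.9% of all genes did not overlap. The median log2 fold change of the 7 genes was -0.15, -0.05 and 0.11 in these 3 comparisons, beside 0.01, 0.07 and 0.06 over all genes. A missed threshold does not show equal levels. The 95% interval lay within 2-fold in both directions for 5 of the 7 genes in each comparison. It was wider for ESR2 in all 3 comparisons, for FSHR in LOW against CON, and for GATA4 in both comparisons with HIGH.

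**Figure D2:**
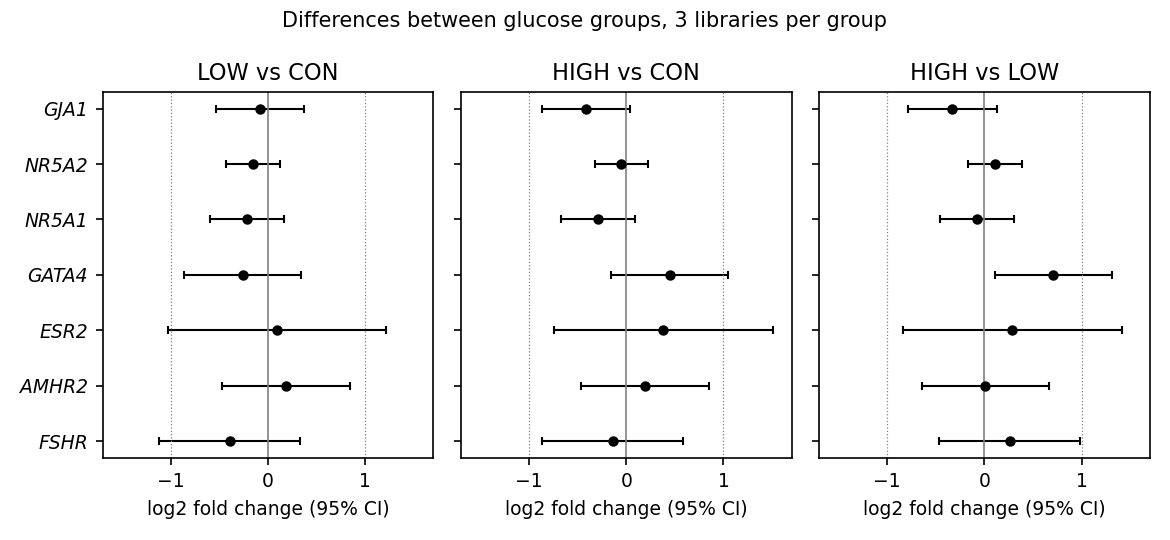
Log2 fold changes of the 7 genes in the 3 comparisons of glucose groups (points) with 95% confidence intervals from limma (bars), 3 libraries per group. Only the interval of GATA4 in HIGH against LOW, 0.11 to 1.31, lies clear of the line at 0, and those of ESR2 reach furthest, to 1.504 in HIGH against CON.

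The variation within groups followed the replicate numbers in several of these genes. The third replicate was the lowest of all 3 groups for AMHR2, NR5A2 and ESR2, which is 3 of the 7 genes, where 15.3% of all genes tested showed this. FSHR went the other way and was highest in the third replicate of each group, as were 5.51% of all genes. AMHR2 was highest in the first replicate of each group, as were 21.5%. The labels give no batch for the numbers, so what libraries with the same number share was not tested. The map of deviations shows ESR2 at -1.37 in CON replicate 3, the largest departure of any of the 7 genes, and GATA4 at 0.83 in HIGH replicate 1.

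**Figure D3:**
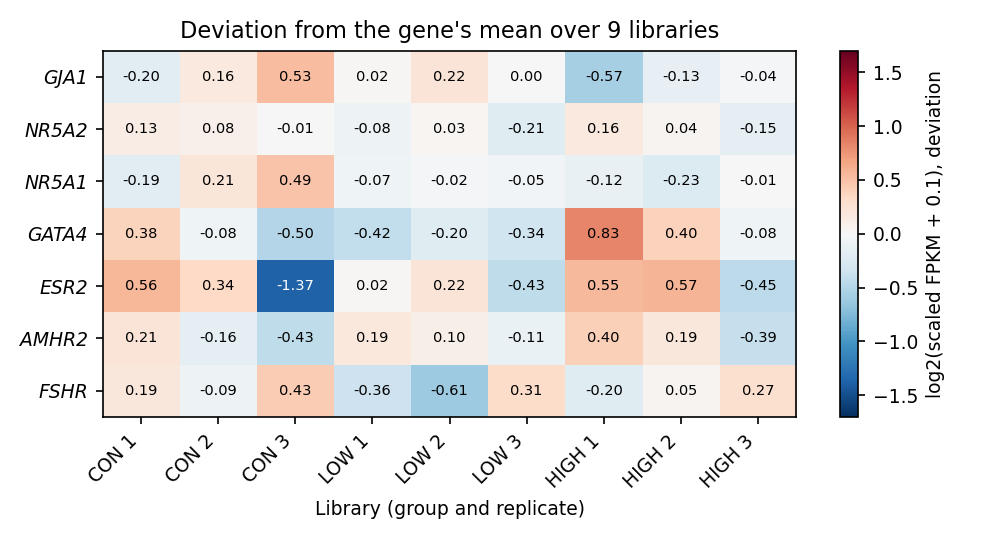
Deviation of each gene from its own mean over the 9 libraries, on the log2(scaled FPKM + 0.1) scale, with red above and blue below the mean. GATA4 and GJA1 deviate in opposite directions in 8 of 9 libraries, most clearly in CON replicate 3 (-0.50 and 0.53) and HIGH replicate 1 (0.83 and -0.57).

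The rows of these genes, other than FSHR, sum 2 or more transcripts, named after the reference annotation (such as ESR2-201) or numbered where the authors assembled them. The ESR2 row held 3. The annotated ESR2-201 (chromosome 7, 73323879 to 73369246) was measured at 0.820, 0.736 and 0.382 FPKM in CON, 0.578, 0.636 and 0.935 in LOW, and 0.882, 0.992 and 0.874 in HIGH. Its HIGH values were all above its CON values, as the groups did not overlap for 9.44% of all transcripts, with a difference of 0.56 (SE 0.31, adjusted p = 0.741, limma).

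The assembled TCONS_00271957 (73317770 to 73343900), which overlaps one end of ESR2-201, was measured at 1.14, 0.883 and 0.0363 FPKM in CON, 0.807, 0.835 and 0 in LOW, and 0.972, 1.04 and 0.00317 in HIGH. It was thus near the level of ESR2-201 in replicates 1 and 2 of every group and near 0 in the third. Of 16209 transcripts with an FPKM of 0.5 or more in the 6 libraries numbered 1 or 2, 3 (0.0185%) were under 0.05 in all 3 libraries numbered 3, and this was 1 of them, a search made after its values were seen. The low ESR2 sum of the third LOW and HIGH replicates therefore lay in this transcript, whereas ESR2-201 itself was at 0.935 and 0.874 there. In CON replicate 3, ESR2-201 was also at its lowest. The last of them, ESR2-OT1, named as overlapping ESR2, reached at most 0.350 FPKM.

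In the AMHR2 row, the annotated AMHR2-201 (chromosome 3, 132931907 to 132937701) was measured at 0.434, 0.383 and 0.0890 FPKM in CON, 0.169, 0.162 and 0.165 in LOW, and 0.164, 0.1004 and 0.0530 in HIGH. The assembled TCONS_00213599, which spans the whole row, was at 0.365, 0.159 and 0.327 in CON, 0.528, 0.465 and 0.356 in LOW, and 0.674, 0.644 and 0.365 in HIGH. Their group means ran in opposite directions, since AMHR2-201 was lower in HIGH than in CON (log2 difference -0.81, SE 0.45, unadjusted p = 0.103, limma) and TCONS_00213599 was higher (0.84, unadjusted p = 0.039, adjusted p = 0.741, limma). Neither passed the adjusted test. The difference between these 2 opposite differences was not tested.

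**Figure D4:**
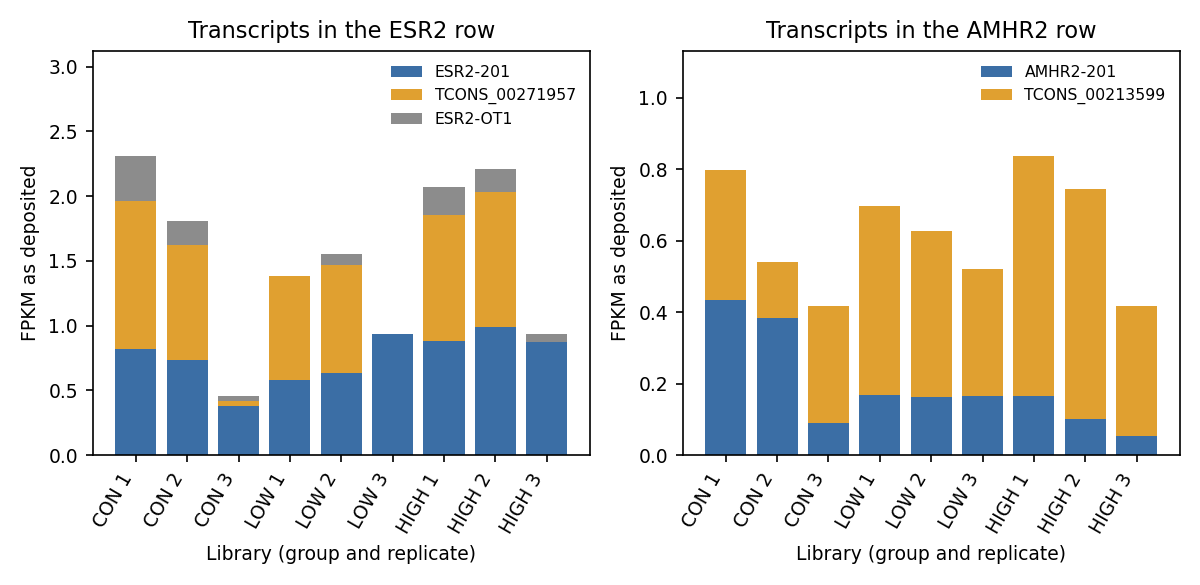
FPKM as deposited of the transcripts that make up the ESR2 row (left) and the AMHR2 row (right), stacked per library. TCONS_00271957 of ESR2 is at 0.807 to 1.14 FPKM in replicates 1 and 2 and at 0 to 0.0363 in the third replicates, and AMHR2-201 is at 0.434 and 0.383 FPKM in CON replicates 1 and 2 and at 0.169 or less in the other libraries.

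The GATA4 row held 9 transcripts, and the annotated GATA4-201 gave only 5.66% of its FPKM. The assembled TCONS_00127035 (chromosome 2, 104291815 to 104347052) gave 34.2%, at 3.23, 1.56 and 0.603 FPKM in CON, 1.498, 1.16 and 1.19 in LOW, and 4.12, 2.74 and 1.51 in HIGH. All HIGH values of this transcript were above all LOW values, as the groups did not overlap for 16.3% of all transcripts (log2 difference 0.92, SE 0.52, adjusted p = 0.717, limma). TCONS_00127062 (104354709 to 104373223) was at 0.219, 0.379 and 0.166 FPKM in LOW and 0.865, 1.22 and 0.495 in HIGH (log2 difference 1.37, SE 0.43, unadjusted p = 0.012, adjusted p = 0.661, limma). TCONS_00127064 (104362245 to 104373223), which gave 20.7% of the row, differed between these groups by less than its error, at 0.885, 1.19 and 0.932 FPKM in LOW and 1.52, 0.837 and 0.974 in HIGH (log2 difference 0.06, SE 0.27). In CON it was at 1.39, 1.38 and 1.59 FPKM, and HIGH against CON was -0.33 (SE 0.27, adjusted p = 0.741, limma). The level of GATA4 given above is therefore mostly that of assembled models.

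By contrast, 1 annotated transcript gave nearly the whole row of the other genes, with 98.0% for GJA1-201, 96.8% for NR5A1-201 and 96.6% for NR5A2-201, and FSHR had 1 transcript. NR5A1-AS1, named as antisense to NR5A1, was listed at 0 in 5 libraries and reached 1.54 FPKM in CON replicate 2. The library kit is not stated to keep the strand, so reads of NR5A1 and its antisense transcript cannot be told apart. Of the 21 transcripts of these genes tested among 39471, none was called in any comparison, where 0.0279% of all transcripts were called in LOW against CON, 0.0279% in HIGH against CON and 0.0355% in HIGH against LOW. At an unadjusted p under 0.05 they numbered 0, 1 and 1, beside 2.71%, 6.09% and 6.92% of all transcripts.

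Across the 9 libraries, the 21 pairs of genes were compared by exact permutation of the scaled log2 values, with Benjamini-Hochberg adjustment over the pairs. By Pearson's r, 1 pair passed. GJA1 was low where GATA4 was high (r = -0.857, exact permutation p = 0.00200, adjusted p = 0.0419). Spearman's rho was -0.800 (exact permutation p = 0.0138, adjusted p = 0.0595). With deviations from the group means r was -0.872, and without CON replicate 3 and HIGH replicate 1 it fell in size to -0.651. No pair passed when CON replicate 1, LOW replicate 2 or 3, or HIGH replicate 1 or 2 was left out singly, so the call rests on these libraries. By Spearman's rho, 1 pair passed, NR5A1 with AMHR2 (rho = -0.900, exact permutation adjusted p = 0.0426; r = -0.746, exact permutation adjusted p = 0.0753).

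ESR2 and AMHR2, both lowest in the third replicates, had r = 0.821 (exact permutation p = 0.00513, adjusted p = 0.0538), which did not pass. Of the 21 values of r, 9 were positive and 12 negative. Every r among GATA4, ESR2, AMHR2 and NR5A2 was above 0, from 0.558 to 0.821, and every r of these genes with GJA1 or NR5A1 was below 0, although only that of GJA1 with GATA4 passed. GJA1 and NR5A1 had r = 0.783 (exact permutation p = 0.0152, adjusted p = 0.0753). The libraries also differed in their share of small RNA, whose part in these relations was not tested.

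The genes whose pattern was most like that of each member with a mean FPKM of 1 or more are given as a description over the 9 libraries. They are those of highest r among 9106 genes searched for each member. With so many genes and 9 libraries, a high r is no evidence of a link. These libraries differed in depth and in small RNA share, and the part of these differences in the r values was not tested. GJA1 was closest to DCTPP1, a pyrophosphatase of dCTP (r = 0.993), and TIMP1, an inhibitor of metalloproteinases (r = 0.990). GATA4 was closest to SAMD4B, an RNA-binding protein (r = 0.991), and CREB3L2, a membrane-bound transcription factor (r = 0.987). SAMD4B was at 13.3 FPKM in HIGH replicate 1 and 4.88 in CON replicate 3, the libraries where GATA4 was highest and lowest.

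ESR2 was closest to the homeobox gene HMBOX1 (r = 0.984) and to ND1, a mitochondrial gene of respiratory complex I (r = 0.976). NR5A1 was closest to SCO2, which delivers copper to cytochrome c oxidase (r = 0.972). NR5A2 was closest to B4GALT5, a galactosyltransferase (r = 0.929), and ERCC3, a DNA helicase of transcription and repair (r = 0.927).

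The partners of these genes were counted in the same comparisons by 6 lists, and no listed gene was called in any of them. The lists held 19, 31, 13, 9, 10 and 16 tested genes, in the order given below. Over the 6 lists together, 0, 12 and 10 genes had an unadjusted p under 0.05 in LOW against CON, HIGH against CON and HIGH against LOW. Of all genes, 1.83%, 6.77% and 7.67% passed in these comparisons. Over the processing alternatives the counts of listed genes ran from 0 to 3, from 5 to 29 and from 3 to 25. Of 19 tested transcription factors of the gonad, the number at an unadjusted p under 0.05 was 0 in LOW against CON, and 2 (10.5%), both higher, in each comparison with HIGH, beside 6.77% of all genes against CON and 7.67% against LOW in either direction. GATA6, the close relative of GATA4 in GCs, was one of them in both. It was measured at 11.4, 9.52 and 8.60 FPKM in CON, 8.22, 8.24 and 11.1 in LOW, and 13.2, 15.7 and 11.1 in HIGH. Its difference between HIGH and LOW was 0.47 (SE 0.17, adjusted p = 0.602, limma). SIX4 was the other in HIGH against CON and ESR1, the estrogen receptor alpha, in HIGH against LOW. The most abundant of this list were CITED2 and RUNX2, at means of 49.6 and 13.2 FPKM in CON.

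Downstream of FSHR, 31 genes of cAMP and protein kinase A signalling were tested. In HIGH against CON 4 were higher at an unadjusted p under 0.05, PRKACA, ATF1, CRTC3 and AKAP12, and in HIGH against LOW 3, PRKACA, CRTC3 and AKAP12. None was lower, and these are 12.9% and 9.68% of the list, beside 6.77% and 7.67% of all genes in either direction. AKAP12, which anchors protein kinase A, was at 4.77 ± 2.32 FPKM in CON and 8.94 ± 3.15 in HIGH (SD, n = 3 each). GNAS, the stimulatory G protein alpha subunit that couples FSHR to cAMP, was the most abundant at 140 ± 10.1, 134 ± 4.44 and 137 ± 9.70 FPKM (SD, n = 3 each). PRKAR2A came next, with 50.8 FPKM in CON. CRTC3, a coactivator of CREB, had the smallest p in HIGH against LOW (unadjusted p = 0.026, limma) and PDE4B in LOW against CON (unadjusted p = 0.125, limma). The list's median log2 fold change was 0.03 in HIGH against CON and 0.05 in HIGH against LOW, beside 0.07 and 0.06 over all genes.

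Of 13 genes that act with AMHR2, 0 reached an unadjusted p under 0.05 against CON. In HIGH against LOW, SMAD5, a signal carrier of the receptor, was lower (log2 difference -0.28, SE 0.10, adjusted p = 0.621, limma) and FURIN, a proprotein convertase, was higher (0.41, SE 0.15, adjusted p = 0.619, limma) without passing the adjusted test. At an unadjusted p under 0.05 these genes made up 15.4% of the list, beside 7.67% of all genes. PCSK5 had the smallest p in HIGH against CON (unadjusted p = 0.184, limma), and ID1, a target of such signals, was the most abundant with 62.6 FPKM in CON. Of 9 tested partners of ESR2, the corepressor NCOR1 and the coactivator NCOA3 were the most abundant, at 13.8 and 9.01 FPKM in CON.

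Among 10 junction genes, GJA4, a second connexin, was at 8.58 ± 2.55 FPKM in CON, 6.42 ± 0.652 in LOW and 5.63 ± 0.493 in HIGH (SD, n = 3 each). It was lower in HIGH than in CON by -0.52 on the log2 scale (SE 0.23, unadjusted p = 0.049, adjusted p = 0.651, limma). GJA4 was the only gene of the list under 0.05 there (10%, beside 6.77% of all genes). CTNNB1 (beta-catenin) and CDH2 led the list at 229 and 149 FPKM in CON, and TJP1, which binds GJA1 at the junction, had the smallest p in HIGH against LOW (unadjusted p = 0.095, limma).

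Of 16 products and steroidogenic genes of GCs, 4 (25%) were lower in HIGH than in CON at an unadjusted p under 0.05 and 0 were higher, beside 6.77% of all genes in either direction: CYP11A1, STAR, FDXR and INHA. CYP11A1, which makes pregnenolone from cholesterol, was the most abundant of the list, at 182, 177 and 198 FPKM in CON, 159, 162 and 150 in LOW, and 142, 155 and 135 in HIGH. STAR, which carries cholesterol into mitochondria, was at 6.88, 6.86 and 7.63 FPKM in CON, 6.01, 6.74 and 5.84 in LOW, and 4.65, 5.91 and 3.65 in HIGH. The HIGH values of both genes, as deposited, lay below all of their CON values. On scaled values, these groups did not overlap for 9.4% of all genes. The differences were -0.33 for CYP11A1 (SE 0.12) and -0.56 for STAR (SE 0.17), each with an adjusted p of 0.651 in limma. NR5A1, a known activator of both, differed by -0.29 in the same comparison (unadjusted p = 0.115, limma). NR5A2 differed by -0.05 and GATA4 by 0.45. Whether any of these 3 bears on CYP11A1 and STAR was not tested. In HIGH against LOW, STAR was lower and NPR2 higher at an unadjusted p under 0.05, which is 12.5% of the list beside 7.67% of all genes. In HIGH against CON the list had a median log2 fold change of -0.19, beside 0.07 over all genes. SERPINE2 had 59.3 FPKM in CON, and FGF9 the smallest p in LOW against CON (unadjusted p = 0.202, limma).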

How the data were processed

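RNA from 9 cultures (CON, LOW and HIGH, 3 each) had been depleted of ribosomal RNA and sequenced as paired reads. The authors aligned reads with Hisat2, assembled transcripts with Stringtie, counted with HTSeq and deposited FPKM per gene and per transcript. The authors' own tests used DESeq2. The deposited "count" tables equalled FPKM × genomic span × 1 factor per library within 3% for 100% of genes examined (values of 200 or more), so they were treated as a score and used only to read depth (48.0 to 71.3 fragments per kilobase per FPKM). No column was without a sample.

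Groups came from the labels. FPKM was scaled on the median of genes with 1 or more in every library and tested as log2(FPKM + 0.1) with limma 3.58.1 (R 4.3.3; trend, 9 libraries, 3 groups, Benjamini-Hochberg over all genes tested). Genes needed an FPKM of 0.1 in 3 libraries and a span of 300 bases. Fold changes are first-named over second on this scale, which understates changes of low genes. Unnamed Ensembl transcripts were rescaled before the transcript fit, as they were on another scale. On simulated data for HIGH against CON, 199 of 200 genes changed 4-fold were recovered among 24312, with 3 others, and 0 were called with nothing changed. The simulation drew genes independently with 1 dispersion for all, and changed only genes with a mean FPKM of 1 or more. It therefore cannot show the sensitivity for FSHR and AMHR2, which lie below that level, or under the real spread between replicates. Levels and correlations used exact permutation (512 sign flips or all pairings; Python 3.11.15, scipy 1.17.1). From each list of partners, the 2 most abundant genes and the smallest p per comparison were named, and for each member the 2 genes of highest r. Some genes that this rule names are not reported here. The members and lists were chosen with earlier results of these data known.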

Additional observations from a re-analysis of the deposited data

How the results depend on the processing

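No member was called in any comparison under any alternative, and 5 to 6 of the 6 neighbouring pairs in the order of levels differed (without the libraries numbered 3, NR5A1 and GATA4 had an adjusted exact permutation p of 0.0625). DESeq2 and edgeR on counts were not run, since the "count" tables were treated as a score and not as counts of reads. The replicate numbers were not taken as pairs, as the labels give no batch and not every same-number pair deviated together. The 9 same-number correlations of deviations were -0.0267 to 0.424, with 5 above 0.1, and 6 of 9 libraries correlated best with their own number. They were 0.177 to 0.417 for replicate 1, -0.0267 to 0.0104 for replicate 2 and 0.0884 to 0.424 for replicate 3. The main fit thus leaves out whatever libraries numbered 1 or 3 share. Members at an unadjusted p under 0.05 numbered 1 without scaling and 0 to 1 with single libraries left out in LOW against CON (1 without CON replicate 1). In HIGH against CON they numbered 2 without scaling, 1 with the replicate block (GJA1, unadjusted p = 0.022, adjusted p = 0.295, limma) and 0 to 3 with single libraries left out (3 without CON replicate 1, 2 without HIGH replicate 3). In HIGH against LOW they numbered 0 with the small RNA share as a covariate, 2 without the libraries numbered 3 and 0 to 1 with single libraries left out (0 without LOW replicate 1 or 3 or HIGH replicate 1 or 2). For GATA4 in that comparison, the unadjusted p was 0.0079 with the replicate block (adjusted p = 0.234, limma). Without the libraries numbered 3 it was 0.0041 (adjusted p = 0.170, limma). The share of all genes that passed in each setting is not given here. These counts are therefore no result about the members. Listed genes in HIGH against CON numbered 29 without CON replicate 1 and 18 without HIGH replicate 3. They numbered 22 there with the replicate block and 12 without scaling (12 as reported). In HIGH against LOW they numbered 25 without the libraries numbered 3 (10 as reported). Correlated pairs numbered 4 with sense transcripts only, 0 without the libraries numbered 3 and 0 to 3 with single libraries left out (3 without CON replicate 2 or HIGH replicate 3). The 2 settings on libraries numbered 3 and sense transcripts were chosen after seeing the data. Over all alternatives, members' transcripts at an unadjusted p under 0.05 numbered 0 to 1, 0 to 5 and 0 to 3 in LOW against CON, HIGH against CON and HIGH against LOW, and listed genes 0 to 3, 5 to 29 and 3 to 25 (0, 12 and 10 as reported).

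Of 393 alternative values of the 21 log2 fold changes, 20 had the opposite sign, in 11 results. With the small RNA share as a covariate, HIGH against LOW became 0.032 for GJA1, -0.058 for NR5A2, 0.10 for NR5A1, -0.46 for ESR2 and -0.46 for AMHR2, and HIGH against CON became -0.078 for ESR2, -0.10 for AMHR2 and 0.021 for FSHR. Without the libraries numbered 3, LOW against CON became 0.15 for GJA1 and -0.33 for ESR2. ESR2 in LOW against CON was also -0.0012 with a pseudocount of 1 and -0.0083 without scaling. With single libraries left out, LOW against CON ran from -0.26 to 0.10 for GJA1 and from -0.51 to 0.45 for ESR2, HIGH against CON from -0.12 to 0.035 for NR5A2 and from -0.23 to 0.74 for ESR2, and HIGH against LOW from -0.16 to 0.24 for AMHR2. The cause of these changes of sign was not tested. The small RNA share itself differed between LOW and HIGH libraries, so its part cannot be told apart from that of glucose. The lowest depths were those of FSHR and AMHR2, at 14.2 to 57.0 fragments per kilobase. The largest errors were those of ESR2 (SE 0.50), and the part of depth in the errors was not tested.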

Other observations

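Markers of other cells of the ovary were also read from these libraries. Of 6 markers of luteal cells, 5 had a row and a mean FPKM of 1 or more, with OXT (oxytocin) the most abundant at 125 to 259 FPKM. Their summed FPKM, as deposited, was 384 to 477 in CON libraries, 344 to 369 in LOW libraries and 281 to 339 in HIGH libraries. The list shares CYP11A1, STAR and HSD3B1 with the steroidogenic genes of GCs. Of all single genes, on scaled values, 6.07% did not overlap in LOW against CON, 9.4% in HIGH against CON and 18.9% in HIGH against LOW. Of 8 factors of Sertoli cells and the testis, 6 had a row, and SOX9 alone had a mean FPKM of 1 or more. SOX9 was at 11.5 to 20.5 FPKM, while DMRT1 was listed at 0.

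Of 7 markers of the ovarian surface epithelium, 4 had a row, led by KRT8 at 5.55 to 17.5 FPKM. Their sums, as deposited, were 8.68 to 12.4 FPKM in HIGH libraries, below the 14.9 to 21.5 of CON and the 14.0 to 16.5 of LOW libraries. KRT8 gave 77.2% of the sum. Of all single genes, on scaled values, 9.4% did not overlap in HIGH against CON and 18.9% in HIGH against LOW. Of 6 theca markers, 4 had a row and PTCH1 led at 1.40 to 2.98 FPKM, with sums of 1.78 to 3.50 over all libraries. All 8 leukocyte markers had a row, 2 of them with a mean of 1 or more, CD68 at 7.45 to 13.1 FPKM and CD14. TEK led the endothelial markers at 0.519 FPKM or more and GDF9 the oocyte markers at 0.533 or more. ALAS2, of the erythrocyte list, was listed at 0. The part of these cells in the levels of the 7 genes was not tested.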
